A study of Mus musculus with 48 samples.

Results

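The immediate early transcription factors are genes that cells switch on first after a stimulus, and 10 of them were followed in bone after casting of a limb: Fos, Fosb, Fosl2, Jun, Junb, Jund, Egr1, Atf3, Klf2 and Klf4. They were chosen by name from the 32544 gene rows of the count table, all 10 were found there, and all 10 passed the filter on low counts in the paired comparison. RNA was measured in the metaphysis of the tibia, the part of the shaft next to the growth plate, of male mice 19 weeks old. The immobilized group was the left hindlimb after 3 weeks in a cast, with 24 libraries, and the control group was the uncast right hindlimb of the same mice, with 22 usable libraries. Both groups held the same 8 inbred strains, of which CAST/EiJ, PWK/PhJ and WSB/EiJ are wild-derived and NOD/ShiLtJ, A/J, NZO/HlLtJ, 129S1/SvImJ and C57BL/6J are classical, with 3 libraries per strain and limb except for 1 A/J control. No transgene or drug is named in the labels. Because every cast limb was a left limb, side and cast cannot be told apart.

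Immediate early genes are transcribed within minutes of a stimulus, such as a growth factor, stress or mechanical strain, without new protein synthesis. FOS and JUN proteins pair through leucine zippers to form AP-1, a dimer that binds DNA at AP-1 sites, while EGR1 and the Krüppel-like factors KLF2 and KLF4 bind GC-rich sites through zinc fingers. In mouse bone, Fos is required for osteoclasts to form, and AP-1 proteins also act in osteoblasts. A single RNA sample taken after weeks of casting gives the level of such genes at collection and not the first response to the cast. Whether that level was steady before collection was not tested.

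Promoter sequence is shown for Fos and Jun, whose limb differences moved together across mice, and for Klf4, which had the larger of the 2 changes called on average over the strains. Of the 10 genes, 9 had a window in the RefSeq promoter table (build GRCm38.p6), and Egr1 did not. The 250 bases before the annotated start are printed 5′ to 3′ on the gene's strand, with matches to the motifs searched in capitals. The Fos window lies on the plus strand at chr12:85473640-85473889, the Jun window on the minus strand at chr4:95052223-95052472 and the Klf4 window on the minus strand at chr4:55532476-55532725.
Fos: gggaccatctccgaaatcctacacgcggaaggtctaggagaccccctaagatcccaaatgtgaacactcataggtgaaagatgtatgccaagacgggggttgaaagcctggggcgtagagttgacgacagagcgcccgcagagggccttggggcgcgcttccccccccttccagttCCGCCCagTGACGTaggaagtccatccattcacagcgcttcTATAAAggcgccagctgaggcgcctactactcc
Jun: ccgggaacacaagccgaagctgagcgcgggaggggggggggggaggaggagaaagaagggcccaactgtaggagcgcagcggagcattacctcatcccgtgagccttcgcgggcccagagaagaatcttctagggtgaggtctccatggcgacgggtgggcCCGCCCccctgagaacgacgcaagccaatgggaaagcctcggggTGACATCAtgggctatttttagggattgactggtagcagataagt
Klf4: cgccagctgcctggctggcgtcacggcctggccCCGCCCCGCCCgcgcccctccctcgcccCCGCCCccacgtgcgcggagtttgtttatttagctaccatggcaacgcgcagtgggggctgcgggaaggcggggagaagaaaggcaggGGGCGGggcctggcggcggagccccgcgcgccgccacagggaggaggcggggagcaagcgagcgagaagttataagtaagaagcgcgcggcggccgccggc

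Motifs were searched on both strands of windows of 300 bases, from 250 before to 50 after the start. The GC box GGGCGG was in 7 of the 9 windows (Fos, Fosb, Fosl2, Jun, Atf3, Klf2 and Klf4) and in 35.7% of all 32851 windows. The TATA box TATAAA was in the Fos and Junb windows and in 13.6% of all windows. In Fos it lay at bases -33 to -28 from the start. In Junb it lay at bases 1 to 6 from the RefSeq start, which is upstream of the GENCODE start, at -30 bases from it. For 3 of the 9 genes the RefSeq start lies far from the GENCODE start. Its distance along the strand is 34706 bases for Atf3, 671 for Fosl2 and -1210 for Jund, where a minus sign means upstream. The windows of these 3 genes may therefore not be the promoter used in bone. For the other 6 genes the 2 starts lie within 30 bases of each other. No window of the 9 held the CArG box of serum response factor (1.63% of all windows), the full CRE TGACGTCA (1.79%), the AP-1 site TGACTCA or TGAGTCA (5.20%), or the EGR site GCGTGGGCG (0.612%). After the sequences had been read, the CRE core TGACGT, which every full CRE contains, and the AP-1 variant TGACATCA were added. The core was in the Fos and Atf3 windows and in 7.51% of all windows, and the variant was in the Jun window, at bases -45 to -38, and in 3.62% of all windows. These matches describe letters and not bound sites. Bases more than 250 before the start were not searched, nor was any window of Egr1, so a motif missing here may lie elsewhere.

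Totals ran from 5253408 to 14744056 counts in the 46 usable libraries. A pair of A/J control libraries, replicates 2 and 5, held 2335 and 50 counts and were left out, so 22 mice had both limbs, 3 per strain but 1 in A/J. The A/J effect therefore rests on 1 mouse and is assumed to vary like the others. Reads were counted against mm10, per the submitters' processing notes, a genome of C57BL/6J origin, and its part in level differences between strains was not tested. A couple of libraries stood apart in the members themselves. NZO/HlLtJ control replicate 4 was above its group mean in all 10 genes, by 0.89 on the log2 scale on average. Its summed erythroid markers were 550.7 CPM (a gene's count as a share of its library, scaled by TMM), against a median of 51207 over the control limbs, and its neutrophil, B cell and T and NK cell marker sums were also the lowest of the control limbs. PWK/PhJ immobilized replicate 3 was above its group mean in 9 of 10 genes, by 0.73 on average. Every one of 10 osteoblast, 5 osteocyte and 8 osteoclast markers was detected in both limbs. So were all 14 skeletal muscle markers, and detection alone does not show which tissue made up a library.

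Levels per kilobase of annotated exon differed widely between the 10 genes and kept nearly the same order in both limbs. Jund, an AP-1 subunit that most cells express without a stimulus, had a median of 21.1 CPM per kilobase in immobilized limbs and 16.6 in control limbs. Klf2, an endothelial and lymphocyte factor, stood beside it at 20.8 in immobilized and 19.4 in control limbs. Klf4, a zinc finger factor also used to reprogram cells, had 16.4 in immobilized and 11.8 in control limbs. Fosl2 at 12.9 and 10.6 (immobilized and control) and Junb at 12.7 and 10.4 formed the middle of the order. Fos, Egr1 and Jun lay between 5.21 and 6.61 in immobilized and between 4.45 and 4.87 in control limbs, and their ranges over libraries overlapped. Atf3, a stress-induced factor, was low at 1.54 in immobilized and 1.55 in control limbs. Fosb was the lowest at 0.178 in immobilized and 0.163 in control limbs, from 0 to 86 counts per immobilized library and 0 to 31 per control library. Neighbours in this order overlapped over libraries in every case, Fosb and Atf3 only at the ends of their ranges.

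Averaged over the 8 strains, 2 of the 10 genes rose in the immobilized limb and none fell: Klf4 rose by 0.40 ± 0.10 and Jund by 0.34 ± 0.08 on the log2 scale (SE, 22 mice). Both passed a false discovery rate (FDR) of 0.05 in edgeR's quasi-likelihood test, at 0.0213 for Klf4 and 0.0245 for Jund. Among all 16882 genes tested 4.58% were called higher and 2.86% lower. The 10 genes had a median change of 0.21, with 8 of 10 positive, against a median of 0.01 and 52.0% positive over all genes tested. In bulk tissue, fewer cells of a type and less RNA per cell cannot be told apart.

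Klf4 (chromosome 4, 55527143 to 55532466, minus strand, GRCm38, GENCODE M21) ranged over 28.0, 49.96 and 138 CPM (lowest, median and highest) in immobilized limbs and over 24.6, 35.9 and 68.8 CPM in control limbs. The ranges overlapped, but within mice the immobilized limb had more Klf4 in 18 of 22. Jund (chromosome 8, 70698949 to 70700616, plus strand, a gene of 1 exon) had 17.8, 35.2 and 66.3 CPM in immobilized limbs and 15.6, 27.7 and 56.5 CPM in control limbs. The immobilized limb had more Jund than the control limb in 16 of 22 mice. Both calls held in each of the 22 fits that left out 1 mouse, with the FDR reaching at most 0.0459 for Jund and 0.0378 for Klf4. Without the pairing of limbs the changes were 0.34 for Jund (FDR 0.0715) and 0.41 for Klf4 (FDR 0.0542). With a skeletal muscle score as covariate they were 0.43 for Jund (FDR 0.0508) and 0.33 for Klf4 (FDR 0.181).

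Cell markers moved in the same limbs. Of 10 osteoblast markers 7 rose, and their summed level ran from 9004 to 304731 CPM in immobilized and from 5442 to 124277 CPM in control limbs. Of 8 osteoclast markers 5 rose, with sums of 1640 to 8861 CPM in immobilized and 998.0 to 6711 CPM in control limbs. Of 14 muscle markers 12 fell, with sums of 24.8 to 23551 CPM in immobilized and 63.5 to 66047 CPM in control limbs. Of 9 B cell markers 4 fell, with a median change of -0.43, and of 8 macrophage and monocyte markers 1 rose. No osteocyte, chondrocyte, endothelial, T and NK cell, neutrophil, erythroid or adipocyte marker was called. All 6 chondrocyte markers still had positive changes, with a median of 1.47, the largest median rise of these marker lists. No marker of these lists was at 0 in all libraries of a limb. The part of osteoblasts, osteoclasts and cartilage in the Klf4 and Jund results was not tested.

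**Figure D1:**
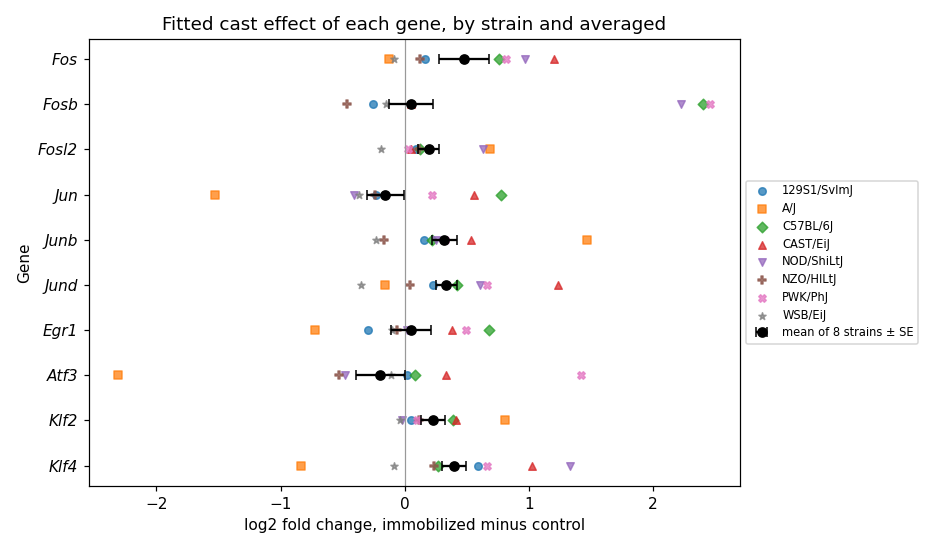
Fitted cast effect of each of the 10 genes on the log2 scale (x axis, immobilized minus control). Coloured symbols are the 8 strains and black points the mean of the strains with its SE over 22 mice. The A/J value of Fosb, a pair with 0 counts in the immobilized limb, is not drawn. Klf4 and Jund lie at 0.40 and 0.34. The single A/J mouse lies farthest to the left for Fos, Jun, Egr1, Atf3 and Klf4 and farthest to the right for Fosl2, Junb and Klf2.

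Among the FOS proteins, the partners that need JUN to bind DNA, none passed the FDR. Fos (chromosome 12, 85473890 to 85477273, plus strand) had 4.76, 15.6 and 44.6 CPM in immobilized limbs and 4.05, 10.5 and 37.0 CPM in control limbs. Its change of 0.48 ± 0.20 was the largest of the 10 genes, at an FDR of 0.151, and 18 of 22 mice were higher in the immobilized limb. The highest control value was NZO/HlLtJ replicate 4, and without that mouse Fos passed at an FDR of 0.0374. It also passed without A/J replicate 1 (0.0447) or PWK/PhJ replicate 6 (0.0387).

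Fosl2, a FOS-related subunit that acts in osteoblasts and osteoclasts of mice (chromosome 5, 32135801 to 32157842, plus strand), had 71.8, 125 and 176 CPM in immobilized limbs and 71.9, 102 and 215 CPM in control limbs. The change was 0.19 ± 0.08 (FDR 0.161), positive in 13 of 22 mice, so the groups overlapped. Fosb (chromosome 7, 19302696 to 19310051, minus strand), whose short splice form increases bone in transgenic mice, had 0, 1.11 and 7.02 CPM in immobilized limbs and 0, 1.02 and 4.12 CPM in control limbs. Its mean change of 0.05 ± 0.18 (FDR 0.949) is not interpretable as a fold, because the A/J pair has 0 counts in the immobilized limb. Without that mouse the mean over the 7 other strains was 0.90, with an FDR of 0.0355, and without PWK/PhJ replicate 3 the mean over 8 strains was -0.034.

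The JUN proteins can also pair with each other. Jun, the founding member (chromosome 4, 95049034 to 95052222, minus strand, 1 exon) had 6.43, 16.6 and 31.5 CPM in immobilized limbs and 6.86, 15.5 and 53.0 CPM in control limbs. Its change was -0.16 ± 0.15 (FDR 0.588), with 11 of 22 mice higher. This is 0.04 without A/J replicate 1, so no direction can be given. Junb (chromosome 8, 84974484 to 84978718, minus strand), a subunit required in mice for normal bone formation, had 16.6, 29.2 and 44.99 CPM in immobilized limbs and 13.7, 23.9 and 53.1 CPM in control limbs. It changed by 0.32 ± 0.10 (FDR 0.0580) and was higher in 14 of 22 mice. The highest control was again NZO/HlLtJ replicate 4, and without this mouse Junb passed at 0.00769. It passed at 0.0447 without PWK/PhJ replicate 6 and at 0.0384 in DESeq2. With all 48 libraries, the near-empty A/J controls included, it passed at 0.0371.

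**Figure D2:**
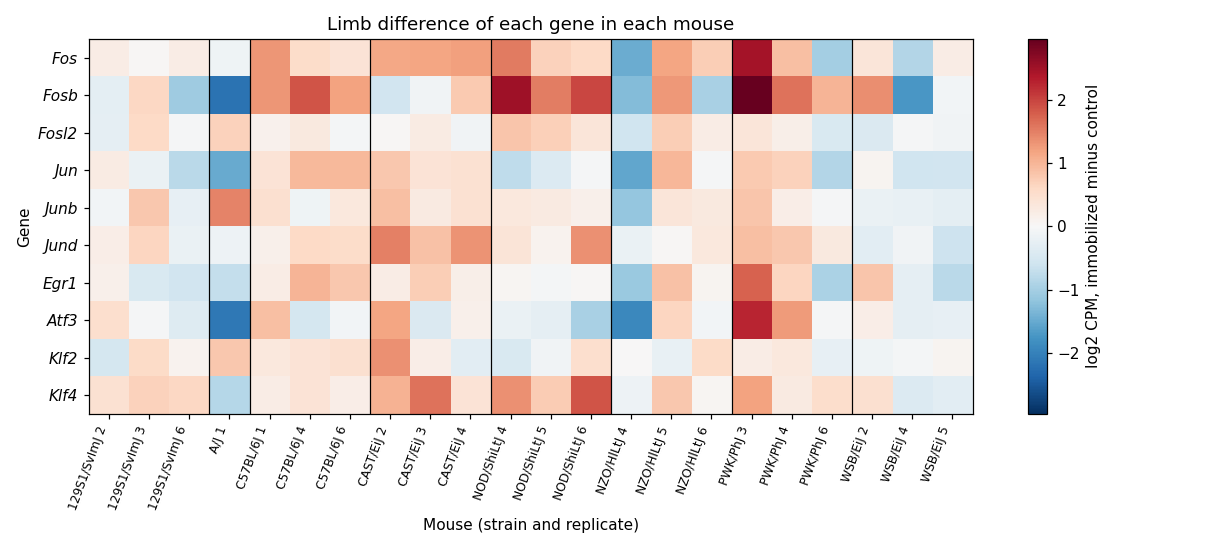
Limb difference in log2 CPM (immobilized minus control, prior count of 2) of each of the 10 genes (rows) in each of 22 mice (columns, by strain and replicate). Red cells are higher in the immobilized limb. Columns are often 1 colour over many genes: PWK/PhJ replicate 3 is red and NZO/HlLtJ replicate 4 blue in nearly every row.

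Atf3, a stress-responsive factor of the CREB family that can pair with JUN (chromosome 1, 191170296 to 191218039, minus strand), had 0.952, 3.33 and 8.34 CPM in immobilized limbs and 0.977, 3.35 and 9.99 CPM in control limbs. The medians were nearly equal, and the change of -0.20 ± 0.20 (FDR 0.614) was 0.10 without the A/J mouse. Egr1, a zinc finger factor induced by growth factors and strain (chromosome 18, 34859823 to 34864984, plus strand), had 12.6, 26.2 and 56.9 CPM in immobilized limbs and 13.1, 20.5 and 58.2 CPM in control limbs. Its mean change was 0.05 ± 0.16 (FDR 0.945), with 14 of 22 mice positive, and -0.031 without PWK/PhJ replicate 3. Klf2, which blood flow induces in endothelium (chromosome 8, 72319033 to 72321656, plus strand), had 22.4, 38.5 and 72.2 CPM in immobilized limbs and 22.6, 35.9 and 51.8 CPM in control limbs. It changed by 0.23 ± 0.10 (FDR 0.178) and was higher in 14 of 22 mice. For all 3 genes the limbs overlapped and no change was detectable at this spread.

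The next question was whether the response to the cast depends on genetic background. No gene of the 10 passed the F test among the 8 strain effects, where 2.5% of all genes did. The lowest FDRs in edgeR were those of Jund at 0.0658, Klf4 at 0.0717 and Fosb at 0.127. These genes, 3 of 10, were the ones with an unadjusted value under 0.05, which 20.6% of all genes had. DESeq2 gave Jund an FDR of 0.00171 and Klf4 one of 0.00286. With all 48 libraries, the near-empty A/J controls included, Jund passed at 0.0439. Leaving out 1 mouse let Jund pass in 5 of 22 fits, at 0.0488 without 129S1/SvImJ replicate 3, 0.0420 without NOD/ShiLtJ replicate 5, 0.0413 without NOD/ShiLtJ replicate 6, 0.0480 without NZO/HlLtJ replicate 5 and 0.0419 without PWK/PhJ replicate 6. Without NZO/HlLtJ replicate 5 Klf4 and Fosb passed too, at 0.0256 and 0.0355. Strains with a called change below are thus not shown to differ from the others by edgeR.

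In CAST/EiJ, a strain derived from wild Mus musculus castaneus, Jund and Klf4 rose, and all 10 genes had positive changes. Jund had 55.2, 45.6 and 39.7 CPM in the immobilized limbs of replicates 2, 3 and 4, and 19.6, 24.9 and 15.6 CPM in their control limbs. The limbs did not overlap. The change was 1.24 ± 0.21 on the log2 scale (FDR 0.00148), and it passed the FDR when any of the 3 mice was left out. Klf4 had 59.3, 112 and 60.6 CPM in the immobilized limbs of the same mice and 29.1, 36.5 and 45.5 CPM in their control limbs. It changed by 1.02 ± 0.24 (FDR 0.0104), again without overlap, but the FDR was 0.0603 without replicate 2 and 0.125 without replicate 3. In this strain 13.9% of all genes were called, in either direction (2339), a count that was 1016, 821 or 679 without replicate 2, 3 or 4. Osteoblast marker sums were 95749 to 207319 CPM in the immobilized and 10785 to 18496 CPM in the control limbs.

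In NOD/ShiLtJ, the strain used as a model of autoimmune diabetes, Klf4 and Fosb rose, against 8.33% of all genes called (1407). Without replicate 4 of this strain 0 genes were called, and without replicate 6 only 2. Klf4 had 80.9, 59.9 and 138 CPM in the immobilized limbs of replicates 4, 5 and 6, and 31.7, 35.3 and 37.9 CPM in their control limbs. The 3 control limbs lay close together and every immobilized limb was above them. The change was 1.33 ± 0.24 (FDR 0.00785), with an FDR of 0.0873 without replicate 4 and 0.0843 without replicate 6. Fosb had 7.02, 3.39 and 4.77 CPM in the immobilized limbs and 1.02, 1.02 and 1.03 CPM in the control limbs, which again did not overlap. It changed by 2.23 ± 0.65 (FDR 0.0413), but leaving out any of the 3 mice raised the FDR to between 0.0759 and 0.202. Jun in these mice had 31.3, 23.5 and 21.6 CPM in immobilized limbs and 53.0, 31.3 and 22.2 CPM in control limbs, a change that did not pass (-0.41 on the log2 scale). Osteoblast marker sums were 68706 to 304731 CPM in the immobilized limbs of NOD/ShiLtJ and 21097 to 45007 CPM in its control limbs, and muscle marker sums were 2023 to 7412 CPM in immobilized and 14963 to 66047 CPM in control limbs. The part of these cells in the changes within CAST/EiJ and NOD/ShiLtJ was not tested for osteoblasts. With the muscle score as covariate Klf4 kept an FDR of 0.0163 in NOD/ShiLtJ and Fosb had 0.0544.

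**Figure D3:**
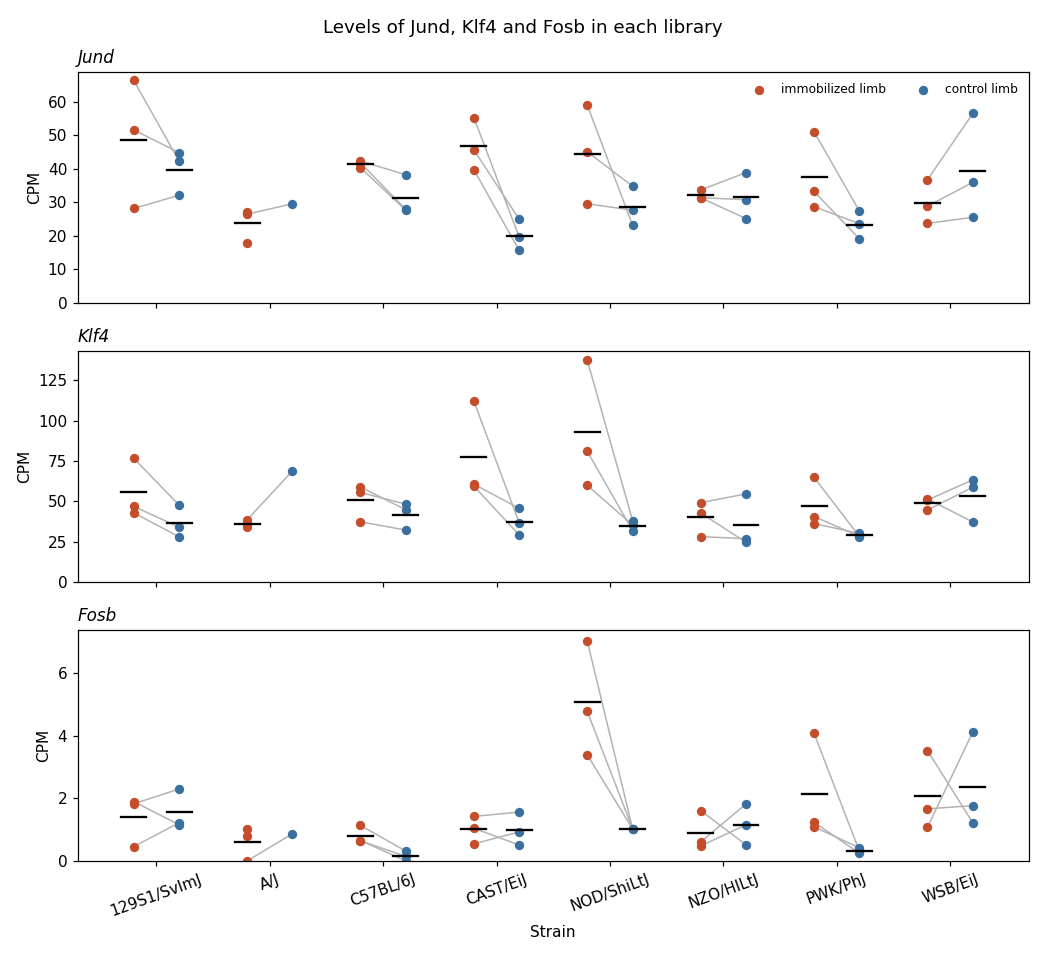
CPM of Jund, Klf4 and Fosb (y axes) in each library by strain (x axis). Red points are immobilized and blue points control limbs, grey lines join the limbs of a mouse and black bars are means of 3 libraries. In CAST/EiJ the immobilized limbs lie at 39.7 to 55.2 CPM for Jund against 15.6 to 24.9 CPM, and in NOD/ShiLtJ at 59.9 to 138 CPM for Klf4 against 31.7 to 37.9 CPM.

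No gene of the 10 was called in the other 6 strains, where edgeR called few genes of any kind except in the A/J pair. The share of all genes called was 0% in 129S1/SvImJ, 0.00592% in C57BL/6J, in NZO/HlLtJ and in WSB/EiJ, 0.0889% in PWK/PhJ and 3.99% in A/J. An unadjusted p under 0.05 was found for 4 of the 10 genes in PWK/PhJ, 4 in A/J, 2 in C57BL/6J, 1 in 129S1/SvImJ and 0 in NZO/HlLtJ and WSB/EiJ. Of all genes tested, 12.2% had such a value in PWK/PhJ, 25.1% in A/J, 4.88% in C57BL/6J, 4.54% in 129S1/SvImJ, 2.17% in NZO/HlLtJ and 6.43% in WSB/EiJ. In C57BL/6J all 10 changes were positive, with a median of 0.41, against a median of 0.01 over all genes tested. There Jund had 42.3, 41.7 and 40.3 CPM in the immobilized limbs and 38.2, 27.8 and 27.6 CPM in the control limbs of replicates 1, 4 and 6. These did not overlap, but the change of 0.42 ± 0.21 did not pass (FDR 0.969). The Jun change in the same mice was 0.78 ± 0.37 (FDR 0.969), with 21.6, 16.6 and 13.5 CPM in immobilized limbs and 16.1, 8.43 and 6.86 CPM in control limbs.

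PWK/PhJ also had 10 positive changes, with a median of 0.58, and its mice differed among themselves. Atf3 there had 8.34, 3.24 and 0.952 CPM in the immobilized limbs of replicates 3, 4 and 6, and 1.55, 1.22 and 0.977 CPM in their control limbs. Replicates 3 and 4 were above their control limbs and replicate 6 was level with its own, and the Atf3 change of 1.42 was 0.79 without replicate 3 and 1.91 without replicate 6. Klf4 in PWK/PhJ had 64.8, 36.1 and 40.5 CPM in immobilized and 28.1, 30.1 and 28.2 CPM in control limbs, a change of 0.66 ± 0.25 (FDR 0.284) with no overlap.

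WSB/EiJ gave 0 positive changes of 10, with a median of -0.13. Its Jund values of 28.8, 23.7 and 36.7 CPM in the immobilized limbs of replicates 2, 4 and 5 were each below the 35.9, 25.5 and 56.5 CPM of the control limbs. Junb and Fosl2 were likewise lower in every WSB/EiJ mouse, without a call. Of the 10 genes, 4 were higher in every mouse of 1 strain and lower in every mouse of another, as were 28.1% of all genes. NZO/HlLtJ had 5 of 10 positive changes with a median of -0.01, and 129S1/SvImJ 7 of 10 with a median of 0.07. In the A/J mouse, where 3 of 10 were positive, Junb had 38.1 CPM in the immobilized and 13.7 CPM in the control limb, while Klf4 had 38.4 CPM in the immobilized and 68.8 CPM in the control limb. Of the 2 A/J immobilized limbs without a usable partner, replicates 2 and 5, Klf4 had 34.2 and 35.7 CPM.

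Strains were then compared within each limb. In control limbs 6 of the 10 genes differed among strains (Fosb, Fosl2, Junb, Egr1, Atf3 and Klf2), where 40.6% of all genes did. In immobilized limbs 4 differed (Fosb, Fosl2, Jund and Klf4), where 50.3% of all genes did. Only Fosb and Fosl2 passed in both limbs, and whether the strain pattern itself changed with the limb is the question of the F test among strain effects above. Without NZO/HlLtJ replicate 4 the control count was 9, and in other fits with 1 library left out it was as low as 3. Calls for Fosb, Atf3 and Klf2 in control limbs held in all 22 such fits, while that for Fosl2 held in 10, Egr1 in 8 and Junb in 6. In immobilized limbs Klf4 held in 24 of 24, Fosb in 23, Fosl2 in 22 and Jund in 7. Without PWK/PhJ replicate 3 Atf3 passed there too, at 0.0224, and the control count was 3.

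Klf2 had the lowest FDR in control limbs (0.00526). It was highest in C57BL/6J, at 49.7 ± 2.68 CPM (SD, n = 3), followed by 129S1/SvImJ at 43.98 ± 5.45 CPM and WSB/EiJ at 39.5 ± 5.09 CPM, neighbours within their spread. At the bottom stood NZO/HlLtJ at 30.7 ± 5.78 CPM and CAST/EiJ at 26.6 ± 3.54 CPM. C57BL/6J was above the mean of the other 7 strains by 0.53 ± 0.12 on the log2 scale (FDR 0.00994). CAST/EiJ was at -0.50 ± 0.13 against the mean of its own other 7 (FDR 0.0109). C57BL/6J also led in immobilized limbs, at 65.4 ± 7.39 CPM, 0.77 above the other 7 (FDR 0.0464), though the F test over all strains was not passed there (FDR 0.129). C57BL/6J is also the strain from which the mm10 sequence derives. Over 8 such contrasts per gene, 8 of 80 member values were called in control limbs, where 9.79% of all values were, and 5 of 80 in immobilized limbs, where 12.9% were.

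Egr1 was highest in 129S1/SvImJ control limbs, with 51.6, 47.5 and 58.2 CPM in replicates 2, 3 and 6. The other 7 strains averaged between 16.9 and 27.6 CPM there, and only WSB/EiJ replicate 5, at 49.0 CPM, reached into the 129S1/SvImJ range. The 129S1/SvImJ difference from the other 7 was 1.33 ± 0.30 (FDR 0.0132). In immobilized limbs 129S1/SvImJ was again the highest, at 43.6 ± 11.8 CPM (SD, n = 3), but the strains did not pass the F test (FDR 0.276).

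Atf3 in control limbs was highest in NOD/ShiLtJ, at 7.34 ± 0.914 CPM, and lowest in PWK/PhJ, at 1.25 ± 0.289 CPM (SD, n = 3 each). NOD/ShiLtJ was 1.20 ± 0.35 above the other 7 strains (FDR 0.0360) and PWK/PhJ was at -1.76 ± 0.47 (FDR 0.0148). CAST/EiJ, at 1.71 ± 0.749 CPM, overlapped PWK/PhJ. The A/J control had 6.08 CPM and NZO/HlLtJ 4.66 ± 4.62 CPM, a spread made by 9.99 CPM in replicate 4.

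Fosb in control limbs was lowest in C57BL/6J, with 0.313, 0 and 0.146 CPM in replicates 1, 4 and 6, and highest in WSB/EiJ, with 1.22, 4.12 and 1.76 CPM in replicates 2, 4 and 5. Against the other 7 strains C57BL/6J was at -2.71 (FDR 0.0231) and WSB/EiJ at 1.73 (FDR 0.0197). In immobilized limbs NOD/ShiLtJ led at 5.06 ± 1.83 CPM, 2.12 ± 0.44 above the other 7 strains (FDR 0.00286). Fosl2 was 148 ± 22.2 CPM in WSB/EiJ and 82.3 ± 14.1 CPM in PWK/PhJ control limbs, and in immobilized limbs PWK/PhJ was again lowest, at 83.5 ± 13.4 CPM, or -0.64 ± 0.16 against the other 7 (FDR 0.00716). Junb in control limbs had 32.4 ± 0.196 CPM in C57BL/6J and 19.0 ± 1.76 CPM in PWK/PhJ, a pair whose libraries did not overlap, and no strain passed against the other 7. Jund in CAST/EiJ was the lowest of the control limbs, at 20.01 ± 4.65 CPM, and its -0.65 ± 0.21 against the other 7 passed (FDR 0.0366), while the F test over all strains gave an FDR of 0.0523. In immobilized limbs CAST/EiJ was among the highest for Jund at 46.9 ± 7.84 CPM, and A/J the lowest at 23.8 ± 5.20 CPM (-0.74 ± 0.23, FDR 0.0356). Klf4 in immobilized limbs was highest in NOD/ShiLtJ, at 92.8 ± 40.2 CPM, 0.91 ± 0.22 above the other 7 (FDR 0.00809).

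**Figure D4:**
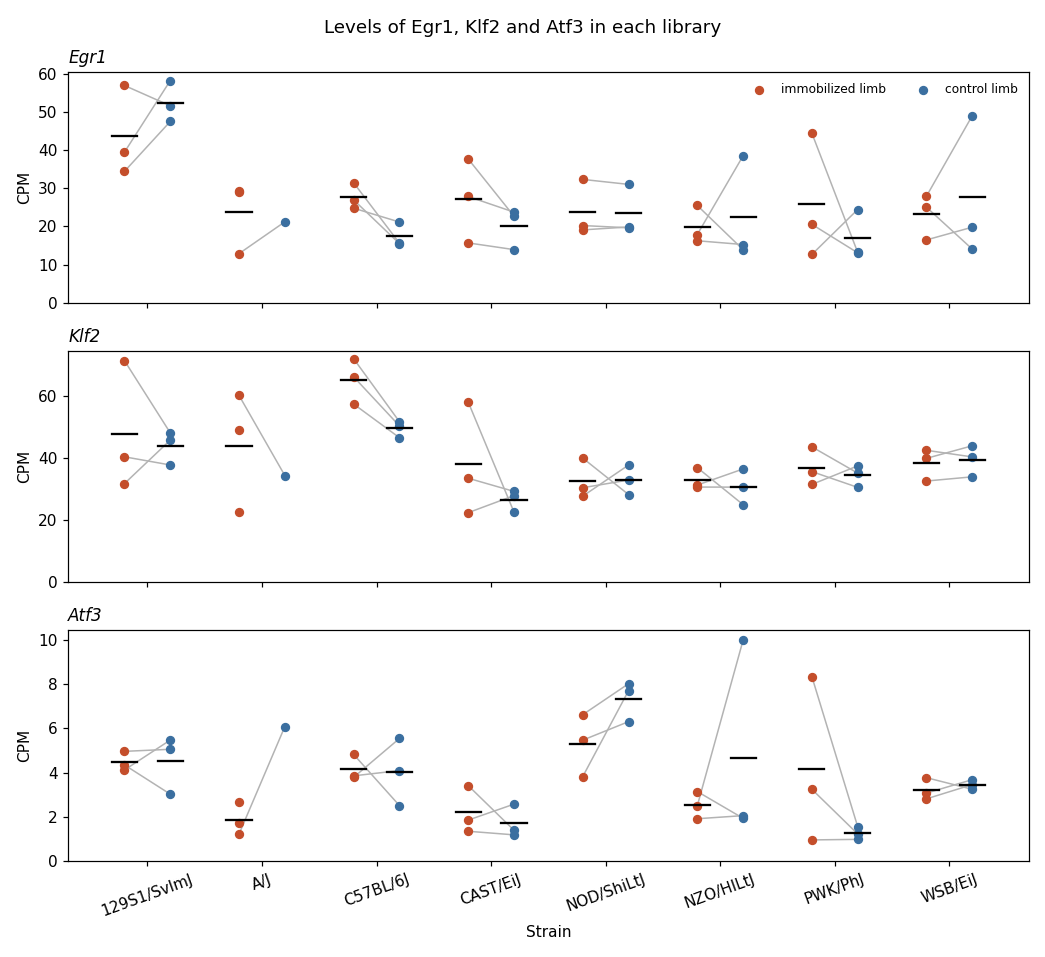
CPM of Egr1, Klf2 and Atf3 (y axes) in each library by strain (x axis), with immobilized limbs in red, control limbs in blue, grey lines joining the limbs of a mouse and black bars at means of 3 libraries. Egr1 control limbs of 129S1/SvImJ lie at 47.5 to 58.2 CPM, and Klf2 is highest in C57BL/6J in both limbs.

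Limb differences of the 10 genes were mostly positively correlated over mice. Over the 22 mice 42 of 45 gene pairs had a positive Pearson correlation, with a median r of 0.39, and 19 passed a permutation test at a Benjamini-Hochberg adjusted p under 0.05, all of them positive. By Spearman's rank correlation 14 passed, 13 of them the same pairs. With the mean of each strain taken off, over the 21 mice outside A/J, 44 of 45 were positive with a median r of 0.47. The permutations moved all 22 mice freely, so their p-values include differences between strains. No p was computed within strains. All values in a pair come from the same libraries, so scaling, depth and tissue makeup are shared. The same counts were not made for pairs of other genes, so they do not set the 10 genes apart. Only 7 pairs passed without PWK/PhJ replicate 3 and 12 without NZO/HlLtJ replicate 4, and between 13 and 21 without any other mouse.

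Jun and Egr1 were the closest pair, with Pearson's r = 0.85 (permutation p = 2e-05, adjusted over 45 pairs 0.0009) and Spearman's rho = 0.90 (permutation p = 1e-05, the smallest these permutations can give, adjusted 0.00045). The value was 0.85 within strains and 0.81 without the 2 mice farthest from the median. Fos joined both, with r = 0.75 to Egr1 (permutation p = 6e-05, adjusted 0.00135, rho = 0.67 with 0.00089, adjusted 0.02) and 0.66 to Jun (permutation p = 0.00068, adjusted 0.00765, rho = 0.61 with 0.0028, adjusted 0.042). Without the 2 farthest mice these were 0.58 and 0.53. Atf3 followed Jun at r = 0.71 (permutation p = 0.00014, adjusted 0.0021, rho = 0.57 with 0.00584, adjusted 0.045), or 0.50 without the 2 farthest mice. Fosl2 followed Junb (r = 0.64, permutation p = 0.00129, adjusted 0.00829, rho = 0.56 with 0.00732, adjusted 0.045), and had r = 0.12 to Jun. Within strains, over the 21 mice outside A/J, these were 0.73 and 0.57. Junb had r = 0.25 to Jun over the 22 mice and 0.64 within strains, so Fosl2 and Junb were not set apart from Jun there. Jund and Klf4, the 2 genes called on average, had r = 0.62 (permutation p = 0.00204, adjusted 0.0115, rho = 0.54 with 0.0109, adjusted 0.045), which was 0.27 within strains and 0.51 without the 2 farthest mice. Klf2 had r of -0.23 to Fosb and -0.04 to Klf4, and 1 of its 9 pairs, to Junb at 0.50, passed.

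**Figure D5:**
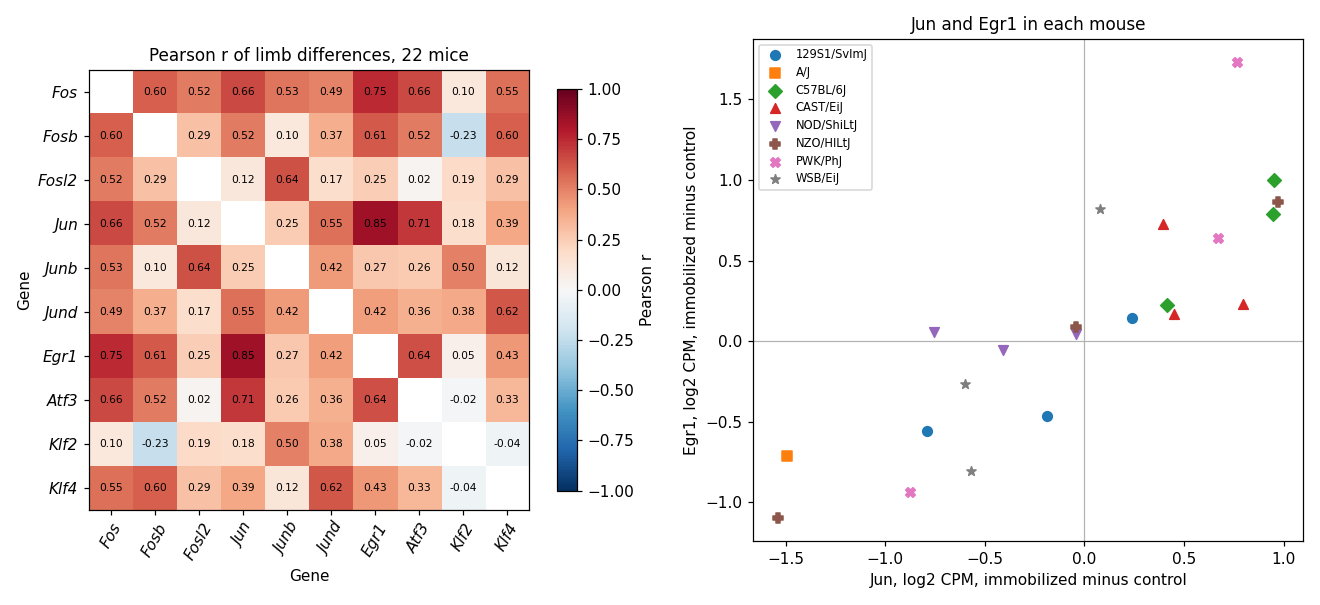
Left, Pearson r between the limb differences (log2 CPM, immobilized minus control) of each pair of the 10 genes over 22 mice. Right, the limb differences of Jun (x axis) and Egr1 (y axis), 1 point per mouse, by strain, with r = 0.85. Fos, Jun, Egr1 and Atf3 form a block of r from 0.64 to 0.85.

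Among 12240 other genes with a mean of at least 5 CPM, those most like Klf4 in limb difference over the 22 mice included Fmnl3 (r = 0.92), encoding a formin, and Piezo1 (0.90), a mechanically gated channel. Klf4 had 781 genes at r of 0.7 or more, Jun 472 and Klf2 26. Most like Jun were Nkain1, the activin binder Fst and Aebp1, at 0.87 each. Most like Egr1 were the oncostatin M receptor Osmr (0.87), Mitf (0.86), an osteoclast and melanocyte factor, and Wsb2 (0.85). For Fos they were Ahnak2, Slc39a1 and Fam129b, at 0.85 each, and for Jund Fuca1 (0.88), CAAA01147332.1 (0.87) and Rgs3 (0.85). Junb was closest to Bcl3 (0.84), Ifi30 (0.83) and the cytokine feedback gene Socs3 (0.81), and Fosl2 to Ier3ip1 (0.86) and the proton pump subunits Atp6v1a (0.84) and Atp6v1c1 (0.83). Fosb was closest to Bmpr2 (0.81), Xxylt1 (0.80) and Hmcn1 (0.80), Atf3 to Pxdn (0.85), Igfbp7 (0.84) and Aebp1 (0.83), and Klf2 to Gtf3a (0.81), Crtc2 (0.79) and Rela (0.78). These were picked as the highest of many and carry no test.

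Other genes of the early response mostly did not pass. Of 19 further early transcription factors tested, 1 rose and 0 fell, with a median change of 0.04. The gene that rose was Jdp2, a JUN dimerization partner, at 0.26 ± 0.07 (FDR 0.0249), higher in 18 of 22 mice. Nr4a1, an orphan nuclear receptor, had -0.45 ± 0.14 (FDR 0.0561). Egr4 was too low to test. Of 26 early response genes that are not transcription factors, 0 rose and 1 fell, with a median of 0.02. It was Arc, a cytoskeletal gene of neurons, at -1.13 ± 0.28 (FDR 0.0242), and higher in 9 of 22 mice. Its means were low, at 1.76 CPM in immobilized and 2.42 CPM in control limbs, so the size of this change is uncertain. Of 22 regulators upstream of these genes, 1 rose and 0 fell: Elk3, a partner of serum response factor, at 0.25 ± 0.07 (FDR 0.0278). Dusp1, a phosphatase that switches off MAP kinases, and Creb1, the cAMP-responsive activator, passed the F test among strain effects (FDR 0.0461 and 0.0451), with mean changes of -0.04 and -0.03 on the log2 scale.

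Of 9 known targets of AP-1 tested, 5 rose and 0 fell, with a median change of 0.66. Among all genes tested 4.58% were called higher and 2.86% lower. The list was chosen with earlier results of these data known, and AP-1 activity was not tested. The collagenase Mmp13 rose by 0.94 ± 0.20 (FDR 0.0139), with a mean of 1274 CPM in immobilized and 689 CPM in control limbs, and was higher in 20 of 22 mice. Mmp9, the gelatinase of osteoclasts, rose by 0.66 ± 0.12 (FDR 0.00512), and Timp1, a metalloproteinase inhibitor, by 1.30 ± 0.25 (FDR 0.00904). Mmp3 rose by 1.76 ± 0.47 (FDR 0.0339) and Spp1, encoding osteopontin, by 0.68 ± 0.16 (FDR 0.0207). Spp1 and Mmp9 are also on the osteoblast and osteoclast marker lists, of which 7 of 10 and 5 of 8 genes rose in the same limbs. Of 5 KLF2 target genes 0 were called, with a median change of -0.0016, and S1pr1, a lymphocyte exit receptor, passed the F test among strains (FDR 0.0472).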

How the data were processed

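Per the labels' protocols, RNA from frozen metaphysis was made into stranded poly(A) libraries and read as paired ends. For each gene the authors deposited raw, whole-number counts of reads, with featureCounts, DESeq2 and mm10 named in the submitters' processing notes. The aligner, annotation and strand setting were not given in the sources used here. CPM were computed from the deposited counts. Testing used edgeR 4.0.16 under R 4.3.3 (robust quasi-likelihood F test after filterByExpr and TMM scaling, Benjamini-Hochberg FDR of 0.05 over all genes tested). The paired model had 1 term per mouse and 1 limb term per strain, since each mouse gave both limbs, per the series design. As a check, deviations of both limbs of a mouse correlated with a median r of 0.089 over 21 mice, from -0.26 to 0.55, and above 0.1 in 10. Strains were compared within each limb by an F test and each against the other 7. Limb differences were correlated in numpy with 100000 permutations per pair, made over all mice without regard to strain and adjusted over 45 pairs. Only the average cast effect of the paired fit was tested on simulated counts, which were built with a mouse effect common to both limbs. The tests among strains and within strains were not. No libraries of a group agreed within sampling noise. DESeq2 1.42.0, RLE scaling, no low-count filter, all 48 libraries, other model terms and leaving out each mouse were tried as alternatives. All 10 members are named, and of the other lists the genes past the FDR, with Nr4a1 and S1pr1 added after their values were seen. The members and lists were chosen with earlier results of these data known.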

Additional observations from a re-analysis of the deposited data

Results flagged for a closer look

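Among the 10 genes, 4 moved in opposite directions in every mouse of different strains with 3 mice each, a pattern that 28.1% of all 16882 genes tested had. Jund was higher in the immobilized limb of every C57BL/6J, CAST/EiJ, NOD/ShiLtJ and PWK/PhJ mouse and lower in that of every WSB/EiJ mouse, and the mean log2 limb difference of CAST/EiJ exceeded that of WSB/EiJ by 1.58. Jun was higher in every C57BL/6J and CAST/EiJ mouse and lower in every NOD/ShiLtJ mouse, with 1.17 between C57BL/6J and NOD/ShiLtJ. Fosl2 was higher in every NOD/ShiLtJ mouse and lower in every WSB/EiJ mouse, with 0.82 between them. Junb was higher in every CAST/EiJ and NOD/ShiLtJ mouse and lower in every WSB/EiJ mouse, with 0.76 between CAST/EiJ and WSB/EiJ. The difference between the strains of each pair was not tested. The F test over all 8 strain effects gave an FDR of 0.0658 for Jund, 0.293 for Jun, 0.437 for Fosl2 and 0.296 for Junb.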

How the results depend on the processing

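Of 1256 values recomputed for single genes, 1124 kept their direction and their side of the FDR, 78 lost a call, 41 gained one and 13 changed sign. Without the replicate block (limbs not paired) 0 members were called on average and 1 gene of all differed among strains, and with the muscle covariate these were 0 and 146, against 2 and 422 as reported. In CAST/EiJ 1257 genes were called without the block, against 2339. Under that covariate the mean change of Jun was 0.23 and that of Atf3 0.076, each with its sign turned. DESeq2 called 2157 genes and 2 members among strains, and 1 member in A/J. With all 48 libraries, the near-empty A/J controls included, 1 member was called among strains and 1 in A/J. Without the low-count filter 730 genes were called on average, against 1255, and 1 member in NOD/ShiLtJ, the same number as with the muscle covariate. The cause of these shifts was not tested.

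Leaving out 1 mouse gave 756 to 2803 genes called on average (2803 without A/J replicate 1, 1909 without NZO/HlLtJ replicate 4, 756 without NZO/HlLtJ replicate 6 and 775 without PWK/PhJ replicate 3). It gave 4 to 1185 genes among strains, with 4 without A/J replicate 1, 1185 without NZO/HlLtJ replicate 5, 712 without NZO/HlLtJ replicate 4 and 264 without PWK/PhJ replicate 3. Members called were 2 to 4 on average, 0 to 3 among strains, 1 to 2 in CAST/EiJ and 0 to 2 in NOD/ShiLtJ, and with 1 library left out 3 to 9 in control and 2 to 5 in immobilized limbs. Correlated pairs numbered 7 to 21. Mean changes that turned sign ran from -0.064 to 0.90 for Fosb, -0.23 to 0.041 for Jun, -0.031 to 0.16 for Egr1 and -0.28 to 0.10 for Atf3. Depth limits Fosb most, since 1 library of each limb had 0 counts.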
